A study of Arabidopsis thaliana with 18 samples.

Results

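Transcripts of 40 nuclear genes that encode the light-harvesting antenna and the photosystem subunits of Arabidopsis thaliana were followed across 6 genotypes of 14-day-old seedlings. The members are a list of gene identifiers, drawn up by the proteins they encode with earlier results of these data known: 4 LHCA genes for the antenna of photosystem I, 9 LHCB genes for the major antenna of photosystem II, 5 LHCB genes for its minor antenna, 12 PSA genes for photosystem I and 10 PSB genes for photosystem II. All 40 stood in the count table of 33602 genes, and all 40 were among the 18906 genes tested.

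The genotypes came from 3 mutant backgrounds that bear on the histone variant H2A.Z, each with 3 libraries. The comparisons ask how the mutations of each, alone or combined, change transcript levels. Col-0 was the wild type. In atchz1ab both AtChz1 genes were mutated, which are named after the yeast H2A.Z chaperone Chz1. In hta9-1 hta11-2 (below, hta9hta11) the H2A.Z genes HTA9 and HTA11 were mutated, while other H2A.Z genes of the plant, such as HTA8, were left. In arp6-1 (below, arp6) the gene was ARP6, a subunit of SWR1, the complex that places H2A.Z in nucleosomes. The last 2 genotypes joined atchz1ab with hta9-1hta11-2 and with arp6-1. Every plant was of the Col-0 ecotype and grown on MS medium at 22 °C with 16 h light and 8 h dark. Each genotype is a single line, mutant in every cell of the plant, with no complemented line here. Whole seedlings were used, so a level averages over all organs. Nothing in the labels ties the replicates to separate cultures; the p-values thus describe how these libraries vary, and that variation may be technical.

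In chloroplasts, antenna proteins of the LHC family bind chlorophyll and carotenoids and pass absorbed light energy to the reaction centres. LHCA proteins serve photosystem I, LHCB1 to LHCB3 build the abundant trimers of photosystem II, and LHCB4 to LHCB6 link those trimers to its core. The reaction-centre cores are largely encoded in the chloroplast genome, while the nucleus encodes the antenna and many peripheral subunits, whose genes are well known for their response to light, the circadian clock and plastid signals.

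Libraries held 7163359 to 10744318 counts. The 40 members took 7.30% to 7.72% of all counts in the 12 libraries without the arp6 mutation and 9.54% to 9.81% in the 6 libraries with it. Levels below are CPM, counts scaled to a common library size, after TMM scaling, whose factors were 1.01 to 1.03 in libraries with ARP6, 0.941 to 0.943 in arp6 and 0.970 to 0.978 in atchz1ab arp6. The mutated genes that were analysed had lower levels in the lines labelled with them. HTA9 was at 93.3 ± 5.85 CPM in Col-0 and 42.7 ± 1.68 CPM in hta9hta11 (SD, n = 3). Its transcripts thus remained in part, and counts alone cannot show whether its function was lost. HTA11 was at 19.5 CPM in Col-0 and 0.832 CPM in hta9hta11. ARP6 was at 27.8 CPM in Col-0, had 0 counts in every arp6 library and 1 count in total in the atchz1ab arp6 libraries. The AtChz1 genes were not analysed here. Among the 40 members, the median coefficient of variation between replicates ran from 0.986% in hta9hta11 to 2.05% in atchz1ab arp6. Differences of a few percent could thus pass the test. Many members are abundant transcripts, and the shares of all tested genes given below were not matched for level.

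In Col-0, the levels per length spanned a wide range. LHCB1.3 (AT1G29930), a major antenna gene, was the highest at 7589 ± 58.1 CPM per kb (SD, n = 3). PSBR (AT1G79040), which encodes a small subunit near the oxygen-evolving complex of photosystem II, came next at 6142 ± 95.7 CPM per kb, then LHCB1.5 (AT2G34420) at 4236 ± 99.4 and PSBO1 (AT5G66570), of the oxygen-evolving complex, at 2507 ± 45.1 CPM per kb. LHCA1 (AT3G54890) at 2401 ± 28.5 and LHCB5 (AT4G10340) at 2396 ± 26.3 CPM per kb lay within their spread of each other. PSAG (AT1G55670), which helps attach the antenna to photosystem I, was the highest of that photosystem's genes at 2141 ± 1.90 CPM per kb. At the other end, LHCB2.3 was at 42.2 ± 2.45 CPM per kb and LHCB4.3 (AT2G40100) was last at 12.2 ± 1.11 CPM per kb.

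Loss of ARP6 went with higher transcript levels of nearly the whole set. In arp6 against Col-0, 38 of the 40 members rose and 0 fell, against 24.2% of all tested genes called higher and 25.5% called lower (49.7% called in all). The calls are those of edgeR's quasi-likelihood test at an adjusted p under 0.05. With an unadjusted p under 0.05, 0 members were lower, and DESeq2 also called 0 lower. The median log2 fold change of the members was 0.39, while that of all tested genes was -0.02. In whole seedlings, more cells of a type and more RNA per cell cannot be told apart. Scaling by library totals instead of TMM gave 34 members higher and 3 lower, with a median of 0.28 on the log2 scale, and moved the median of all tested genes to -0.13. The split of calls among all genes then moved from 4584 higher and 4818 lower to 3166 higher and 6939 lower.

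In arp6 the medians were highest for the major antenna and for the LHCA genes. All 9 major antenna genes rose, with a median log2 fold change of 0.74, as did all 4 LHCA genes with a median of 0.60 and all 5 minor antenna genes with a median of 0.32. In photosystem I, 11 of 12 genes rose with a median of 0.26, and in photosystem II 9 of 10 rose with a median of 0.37. The summed level of the major antenna genes was 1.52-fold that of Col-0, and that of the LHCA genes 1.52-fold, against 1.22-fold for photosystem I and 1.29-fold for photosystem II. A sum weighs the genes with the highest levels most, in the major antenna LHCB1.3 (9335 CPM in Col-0) and LHCB1.5 (4426 CPM). These class values are descriptions, and no test between classes was made.

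**Figure D1:**
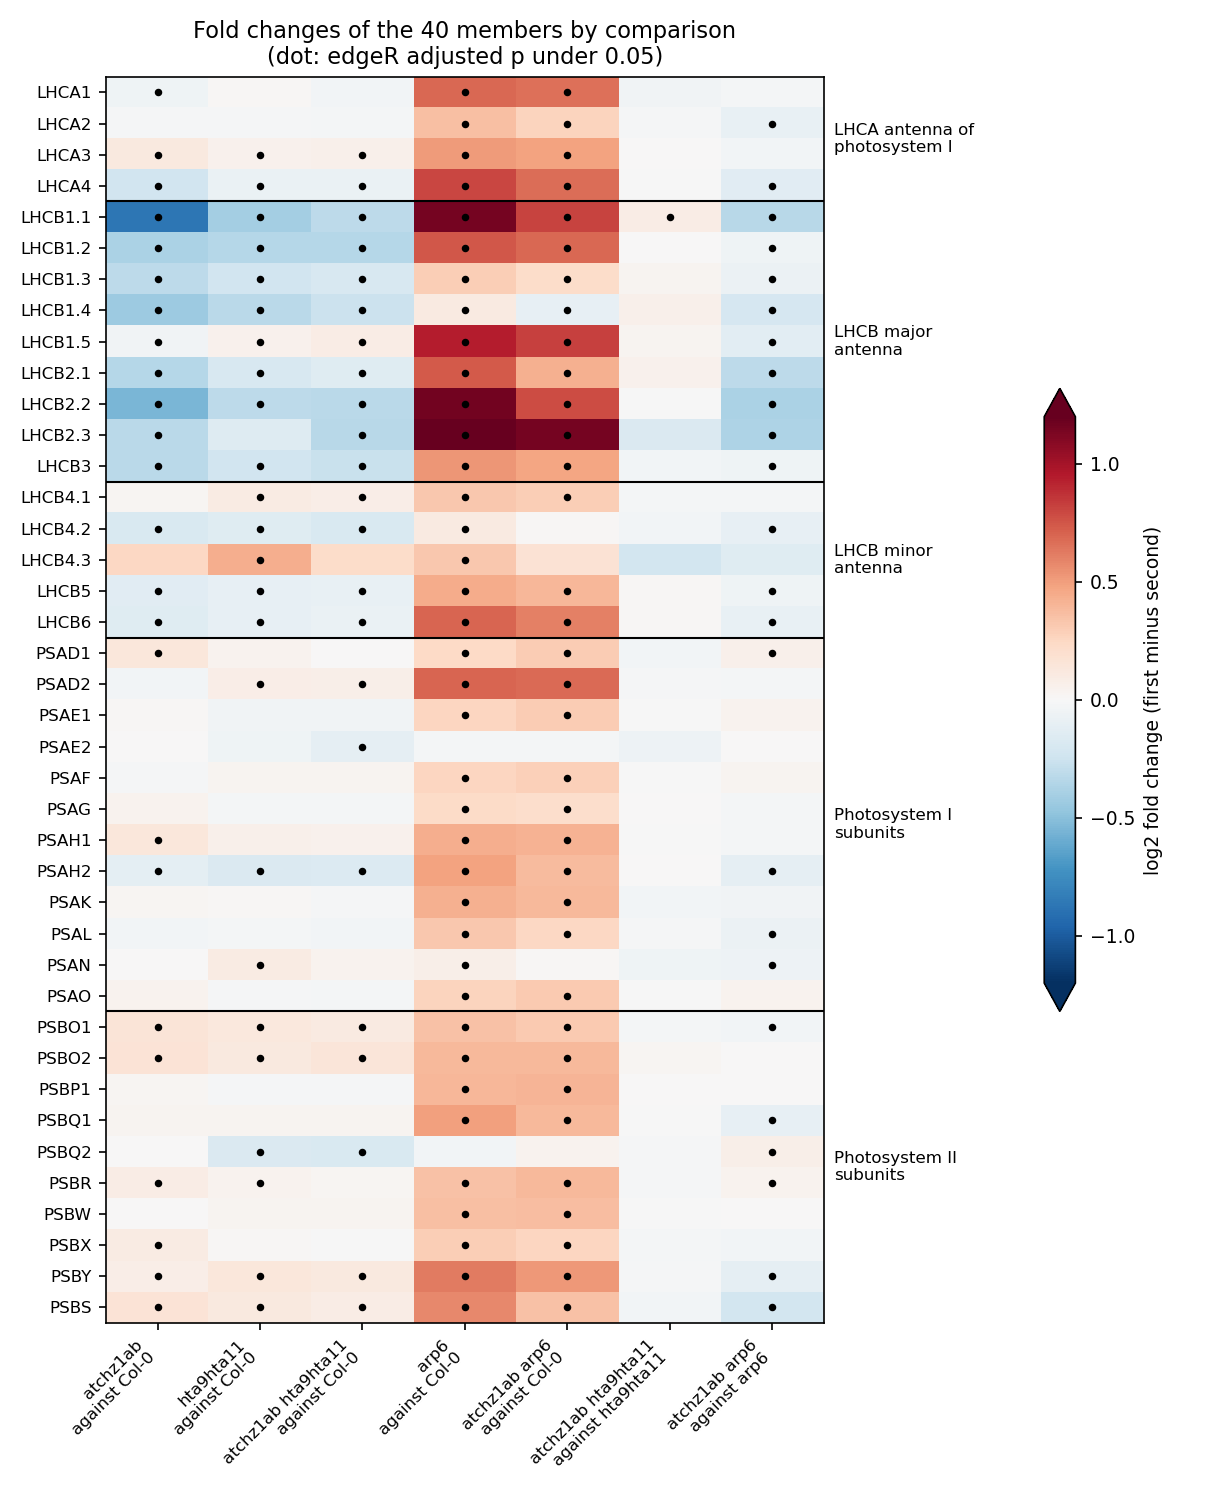
Log2 fold change of each of the 40 members (rows, grouped by class) in 7 comparisons (columns), with a dot where called and colours that stop at 1.2 in either direction, so that LHCB2.3 in arp6 (1.53) is drawn at the end of the scale. The arp6 column is positive nearly throughout, whereas in atchz1ab the major antenna genes are negative and the photosystem II genes at 0.01 to 0.16.

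**Figure D2:**
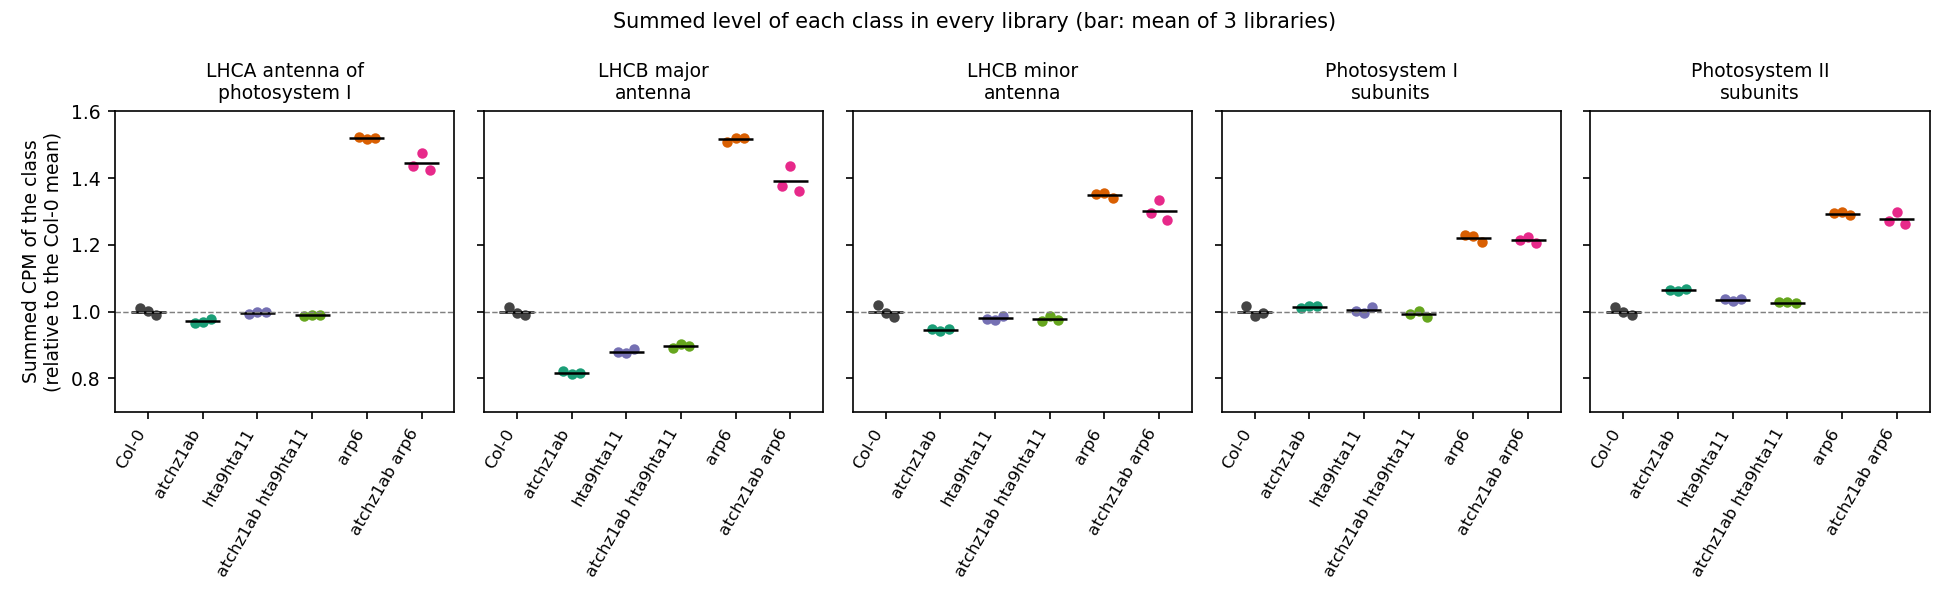
Summed CPM of each class in every library as a ratio to the Col-0 mean, with 3 points and their mean for each genotype, on an axis that does not start at 0. The arp6 libraries lie highest for the LHCA and the major antenna genes (1.52-fold on average), and atchz1ab is lowest for the major antenna (0.817-fold).

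The largest rise among the members was that of LHCB2.3 (AT3G27690), a minor contributor to the LHCB2 transcripts of the major antenna. Its 3 Col-0 libraries were at 57.8, 64.6 and 63.1 CPM and its arp6 libraries at 183.1, 181.9 and 170.2 CPM. Every arp6 library lay above every Col-0 library, and the log2 fold change was 1.53 (SE 0.051, edgeR adjusted p = 2.83e-56), a 2.88-fold level. LHCB2.2 (AT2G05070) came next, at 339.2, 342.0 and 333.6 CPM in Col-0 and 757.5, 767.9 and 744.8 CPM in arp6, again without overlap (log2 fold change 1.16, SE 0.025, edgeR adjusted p = 2.88e-76). LHCB1.1 (AT1G29920) rose by 1.14 on the log2 scale, from 1176, 1156 and 1148 CPM to 2545, 2598 and 2552 CPM.

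LHCB1.3, the most abundant member, moved less in relative terms. It rose from 9400, 9345 and 9258 CPM in Col-0 to 11322, 11429 and 11514 CPM in arp6, with no overlap (log2 fold change 0.29, SE 0.011, edgeR adjusted p = 1.74e-48). LHCB1.4 (AT2G34430) rose least of the major antenna: it was at 1116, 1063 and 1078 CPM in Col-0 and 1165, 1171 and 1167 CPM in arp6 (log2 fold change 0.10, SE 0.019, edgeR adjusted p = 8.82e-07). Under library totals this rise was lost and its sign turned, at -0.01.

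In the antenna of photosystem I, LHCA4 (AT3G47470), which pairs with LHCA1 and carries the long-wavelength chlorophylls, was the member with the largest rise. It stood at 3034, 3058 and 3007 CPM in Col-0 and 5298, 5315 and 5297 CPM in arp6, so the groups lay far apart (log2 fold change 0.81, SE 0.013, edgeR adjusted p = 1.56e-89). LHCA1 itself rose by 0.69 on the log2 scale and LHCA3 (AT1G61520) by 0.51. LHCA2 (AT3G61470) rose least, from 2975, 2886 and 2886 CPM to 3714, 3711 and 3776 CPM (log2 fold change 0.36, SE 0.014, edgeR adjusted p = 1.41e-48).

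In the minor antenna, LHCB6 (AT1G15820, CP24) had the largest rise. Its Col-0 libraries were at 1617, 1567 and 1527 CPM and its arp6 libraries at 2545, 2560.4 and 2522 CPM, without overlap (log2 fold change 0.69, SE 0.017, edgeR adjusted p = 1.9e-71). LHCB5 (CP26) had the highest level of this class per length and rose from 3332, 3362 and 3289 CPM to 4539, 4549.6 and 4521 CPM, a log2 fold change of 0.45. LHCB4.2 (AT3G08940), a copy of CP29, rose least, from 642.0, 638.5 and 634.9 CPM to 703.9, 694.4 and 672.3 CPM (log2 fold change 0.11, SE 0.022, edgeR adjusted p = 6.92e-06); under library totals its value was -0.01 and it was not called.

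Among photosystem I genes, PSAD2 (AT1G03130), a copy of the subunit that docks ferredoxin, rose from 441.5, 421.0 and 418.2 CPM to 695.1, 682.9 and 701.7 CPM (log2 fold change 0.70, SE 0.024, edgeR adjusted p = 1.12e-54). Its groups did not overlap. PSAG rose from 1670.0, 1668 and 1671 CPM to 2000.0, 1937 and 1947 CPM, a log2 fold change of 0.23. PSAE2 (AT2G20260), a copy of another stromal subunit, was the exception: it was at 458.8, 442.1 and 453.1 CPM in Col-0 and 461.1, 433.3 and 436.5 CPM in arp6, with overlapping groups and no call (log2 fold change -0.02, SE 0.026, edgeR adjusted p = 0.506).

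Among photosystem II genes, PSBY (AT1G67740), a small membrane subunit, rose most, from 740.5, 718.7 and 718.0 CPM to 1131, 1128 and 1095 CPM (log2 fold change 0.62, SE 0.020, edgeR adjusted p = 8.47e-58). PSBS (AT1G44575), the protein needed for fast quenching of excess light energy, followed at 0.58 on the log2 scale. PSBR rose from 4900.2, 4757 and 4788 CPM to 6105, 6205 and 6121 CPM, a log2 fold change of 0.35. PSBQ2 (AT4G05180), a copy of an extrinsic subunit of the oxygen-evolving complex, was at 1167, 1184 and 1168 CPM in Col-0 and 1144, 1156 and 1136 CPM in arp6; the arp6 libraries lay just below the others, but the difference was not called (log2 fold change -0.03, SE 0.018, edgeR adjusted p = 0.1). Under library totals PSBQ2 (-0.15) and PSAE2 (-0.14) were called lower, as was PSAN (-0.05), a lumenal subunit of photosystem I that rose by 0.07 with TMM.

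Upstream sequences of 5 of these genes are printed to set large and small changes side by side: LHCB2.3, with the largest rise, LHCB1.1, with the largest fall in atchz1ab, LHCA4, with the largest rise of its class, LHCB1.4 with the smallest rise of the major antenna, and PSBQ2, not called. Each is the 250 bases before the annotated start, from the RefSeq TAIR10.1 genome, 5′ to 3′ on the gene's own strand. The stretches are chr3:10255656-10255905 on the plus strand for LHCB2.3, chr1:10475970-10476219 on the minus strand for LHCB1.1, chr3:17495034-17495283 on the minus strand for LHCA4, chr2:14524357-14524606 on the plus strand for LHCB1.4 and chr4:2673244-2673493 on the minus strand for PSBQ2. Capitals mark matches, on either strand, to the G-box CACGTG, the I-box GATAAG, the CCA1 site AAAAATCT, the evening element AAAATATCT and CCAATC, a sequence linked to the GLK factors that holds the letters of the CCAAT box.
LHCB2.3: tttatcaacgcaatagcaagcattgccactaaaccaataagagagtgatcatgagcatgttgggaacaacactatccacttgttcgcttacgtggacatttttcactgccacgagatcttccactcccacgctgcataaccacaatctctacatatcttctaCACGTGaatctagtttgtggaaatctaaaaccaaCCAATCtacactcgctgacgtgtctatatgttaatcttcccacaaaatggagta
LHCB1.1: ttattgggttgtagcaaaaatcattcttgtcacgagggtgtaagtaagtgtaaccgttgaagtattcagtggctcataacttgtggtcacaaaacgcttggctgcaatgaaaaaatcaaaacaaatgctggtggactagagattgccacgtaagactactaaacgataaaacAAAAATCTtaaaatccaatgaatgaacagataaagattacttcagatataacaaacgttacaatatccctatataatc
LHCA4: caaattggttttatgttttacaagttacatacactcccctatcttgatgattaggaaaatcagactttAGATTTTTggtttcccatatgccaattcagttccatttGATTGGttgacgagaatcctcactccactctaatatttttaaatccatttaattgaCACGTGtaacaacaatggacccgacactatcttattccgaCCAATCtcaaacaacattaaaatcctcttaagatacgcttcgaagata
LHCB1.4: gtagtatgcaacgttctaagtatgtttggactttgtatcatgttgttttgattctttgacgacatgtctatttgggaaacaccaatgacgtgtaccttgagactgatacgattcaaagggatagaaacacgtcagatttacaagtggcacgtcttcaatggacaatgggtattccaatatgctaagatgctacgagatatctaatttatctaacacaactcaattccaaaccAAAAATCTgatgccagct
PSBQ2: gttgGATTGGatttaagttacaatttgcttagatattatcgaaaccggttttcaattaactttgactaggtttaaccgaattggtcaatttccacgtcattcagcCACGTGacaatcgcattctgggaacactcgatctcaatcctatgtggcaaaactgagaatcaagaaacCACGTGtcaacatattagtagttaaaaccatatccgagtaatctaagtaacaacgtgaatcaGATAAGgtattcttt

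CCAATC stood in 3 of 4 LHCA, 5 of 9 major antenna and 2 of 5 minor antenna promoters, in 0 of 12 photosystem I promoters and in 1 of 10 photosystem II promoters. That made 27.5% of the 40 members, against 10.2% of 27443 protein-coding promoters of the same length. The G-box was in 8 of 40 members (6.49% of all promoters), the I-box in 9 of 40 (12.3%), the CCA1 site in 5 of 40 (6.69%) and the evening element in 0 of 40 (2.36%). LHCB2.3 and LHCA4 held a G-box and CCAATC, but so did PSBQ2, and LHCB1.1 shared only the CCA1 site with LHCB1.4. A match is a stretch of letters in this window and is given as a description.

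In atchz1ab, the antenna and photosystem II moved in opposite directions. Against Col-0, 9 of the 40 members rose and 15 fell, beside 6.15% and 5.55% of all tested genes (11.7% called in all). These shares were not matched for level. With at least a 1.5-fold change, 1 of the 40 members was called, beside 2.71% of all tested genes. The members' median log2 fold change was 0.00. All 9 major antenna genes fell, with a median of -0.34 and a range of -0.87 to -0.04. In photosystem II, 6 of 10 genes rose and 0 fell, with a median of 0.09, and 0 were lower by DESeq2 or at an unadjusted p under 0.05. In the minor antenna 3 of 5 genes fell, and LHCA and photosystem I genes were mixed (1 rose and 2 fell of 4, and 2 rose and 1 fell of 12).

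LHCB1.1 fell furthest. Its atchz1ab libraries were at 641.3, 636.4 and 627.7 CPM, below every library of every other genotype (log2 fold change against Col-0 -0.87, SE 0.018, edgeR adjusted p = 2.24e-76). LHCB2.2 fell to 234.8, 231.7 and 229.2 CPM, a log2 fold change of -0.54, and LHCB1.4 to 815.2, 799.0 and 795.1 CPM, a log2 fold change of -0.43. LHCB1.3 fell from 9400, 9345 and 9258 CPM to 7535, 7499 and 7501 CPM (log2 fold change -0.31, SE 0.012, edgeR adjusted p = 1.25e-50). LHCB1.5 hardly moved, at 4342, 4245 and 4301 CPM against 4544, 4350 and 4385 CPM (log2 fold change -0.04, SE 0.013, edgeR adjusted p = 0.0166).

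Outside the major antenna, LHCA4 fell to 2573, 2541 and 2629 CPM (log2 fold change -0.23, SE 0.013, edgeR adjusted p = 7.97e-32), whereas LHCA3 rose by 0.12 on the log2 scale. The largest rise among called members was that of PSBO2 (AT3G50820), a copy of the manganese-stabilising subunit, from 1349.9, 1307 and 1325 CPM in Col-0 to 1484, 1488 and 1478 CPM (log2 fold change 0.16, SE 0.016, edgeR adjusted p = 7.1e-15). PSBS rose by 0.16 as well, from 1211, 1228 and 1224 CPM to 1344, 1379 and 1370.2 CPM. None of these groups overlapped, but each change was small.

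In hta9hta11, 11 members rose and 13 fell, beside 5.98% and 5.26% of all tested genes (11.2% in all), with a median of -0.01. Of the major antenna, 7 of 9 genes fell and 1 rose, with a median of -0.23 and a range of -0.40 to 0.05. In photosystem II 5 of 10 genes rose and 1 fell. LHCB1.1 again fell furthest, to 876.1, 865.6 and 888.8 CPM, between the atchz1ab and the Col-0 libraries (log2 fold change -0.40, SE 0.018, edgeR adjusted p = 7.84e-42). LHCB4.3, the weakly expressed relative of CP29, rose most, from 16.7, 19.5 and 16.8 CPM to 23.4, 24.6 and 24.2 CPM (log2 fold change 0.44, SE 0.11, edgeR adjusted p = 0.00128). LHCB2.3 was not called, at -0.15 on the log2 scale, and LHCB1.5 was called higher at 0.05 although its libraries overlapped with Col-0. The comparisons of atchz1ab, hta9hta11 and arp6 share the same 3 Col-0 libraries.

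**Figure D3:**
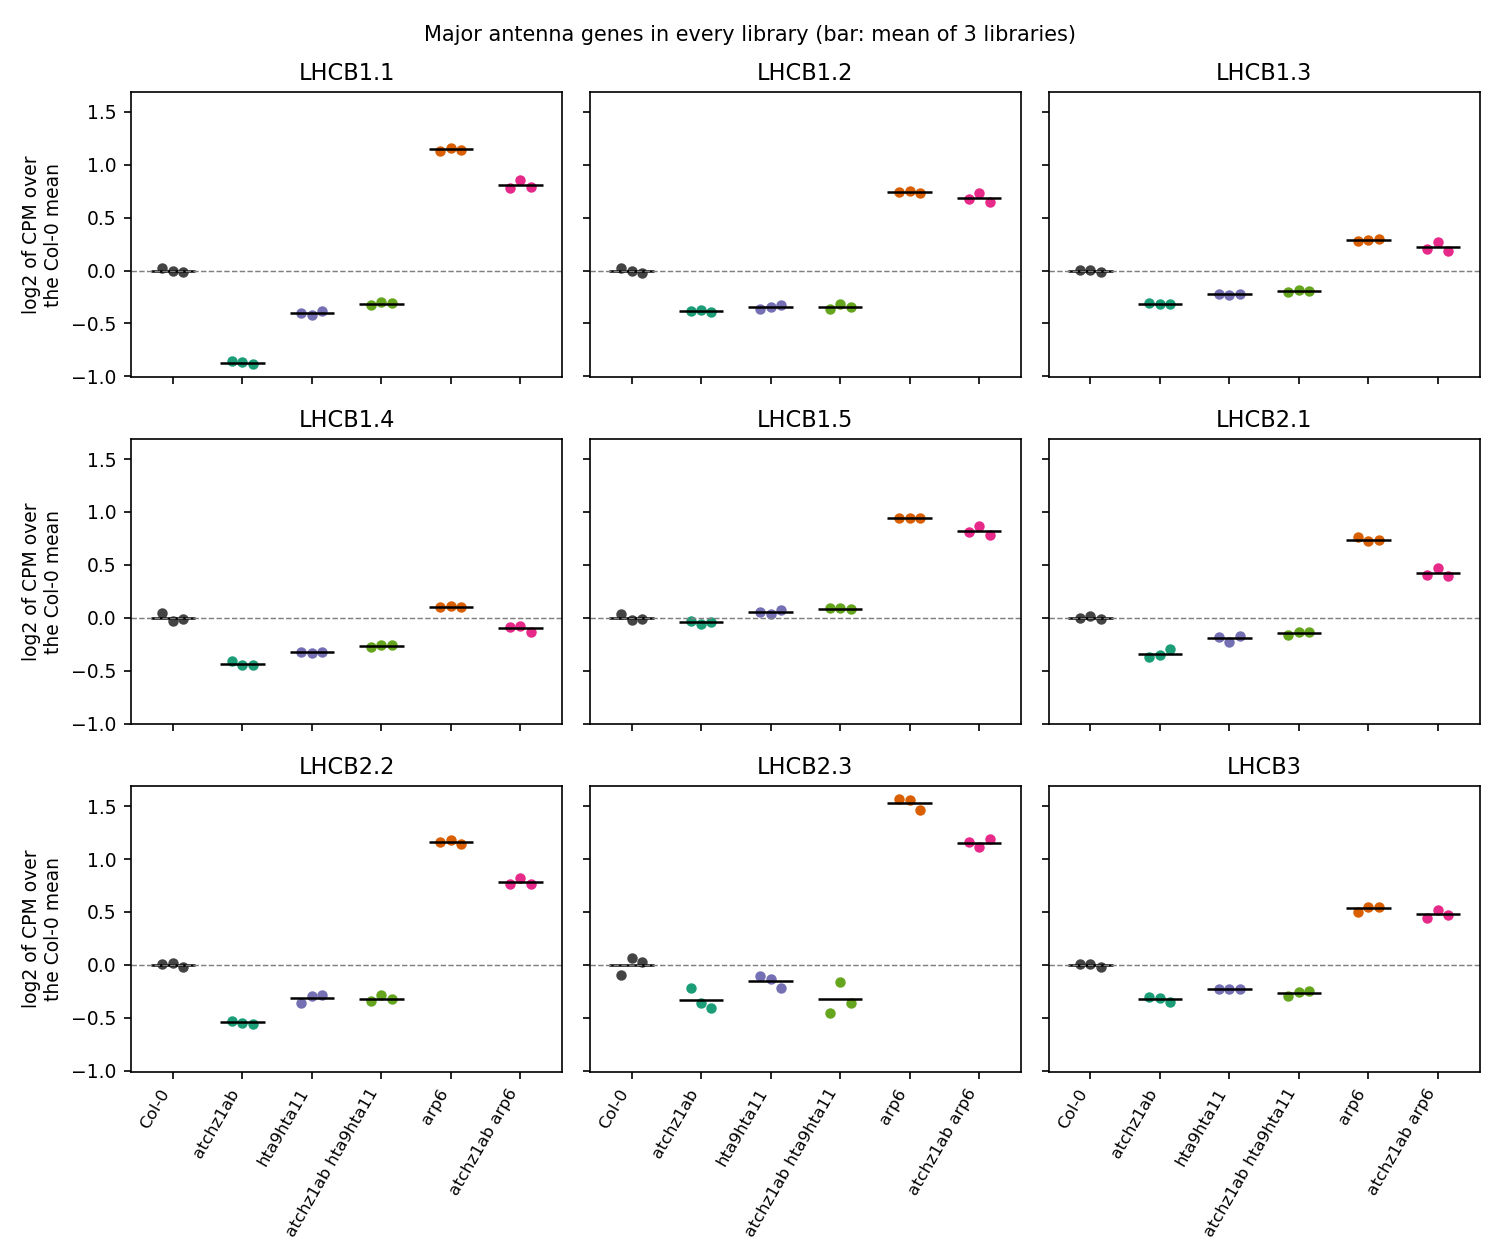
Log2 of the CPM over the Col-0 mean for each of the 9 major antenna genes in each of the 18 libraries, by genotype, with bars at the mean of 3 libraries. LHCB1.1 has the lowest points in atchz1ab (-0.87) and LHCB2.3 the highest in arp6 (1.53), while LHCB1.4 stays near Col-0 in arp6 (0.10).

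Within the hta9hta11 background, adding atchz1ab changed the members little. In atchz1ab hta9hta11 against hta9hta11, 1 of the 40 members rose and 0 fell, where 1.75% of all tested genes were called (0.793% higher and 0.952% lower). The gene was LHCB1.1, at 923.7, 945.5 and 935.0 CPM in the combined line, above the hta9hta11 libraries (log2 fold change 0.09, SE 0.018, edgeR adjusted p = 0.000206). With an unadjusted p under 0.05, 5 members were higher and 8 lower. The share of all genes at that threshold is not given, so these counts have no background to be read against. DESeq2 called 1 member higher and 0 lower, and 219 of all genes. Under library totals 4 were higher: LHCB1.1, LHCB1.3, LHCB1.4 and LHCB1.5. The calls among all tested genes then moved from 150 higher and 180 lower to 217 higher and 144 lower. In Col-0 the same mutations had brought 24 calls, and the 2 comparisons share no library.

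The difference between these effects was tested as an interaction, the effect of atchz1ab in hta9hta11 minus its effect in Col-0. It was called for 23 members, 13 positive and 10 negative, beside 7.15% of all tested genes (3.41% and 3.74%). Of the major antenna 8 of 9 were positive, with a median of 0.39, and of photosystem II 6 of 10 were negative, with a median of -0.10. LHCB1.1 had the largest value at 0.96 (SE 0.026, edgeR adjusted p = 2.28e-64) and LHCB4.3 had the most negative at -0.47 (SE 0.15, edgeR adjusted p = 0.0295). The LHCB4.3 call was lost with DESeq2 (adjusted p = 0.0894) and when some single libraries were left out.

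The combined line itself stood close to hta9hta11. Against Col-0, 8 members rose and 15 fell (11.5% of all genes called, 6.19% higher and 5.32% lower), among them 8 of 9 major antenna genes, with a median of -0.27 for that class. LHCB1.2 (AT1G29910) fell furthest, from 1971, 1932 and 1901 CPM to 1506, 1554 and 1522 CPM (log2 fold change -0.34, SE 0.016, edgeR adjusted p = 9.84e-40). PSBO2 rose most among called members, at 0.14 on the log2 scale (edgeR adjusted p = 3.54e-12). Against atchz1ab, 13 rose and 13 fell (10.6% called, 5.46% higher and 5.16% lower). There LHCB1.1 rose by 0.56, and PSBQ2 fell by 0.19 on the log2 scale, from 1206, 1166 and 1161 CPM to 1019, 1043 and 1039 CPM. Without replicate 3 of the combined line, 8 members were lower in this comparison. Between the effects of the hta9hta11 mutations with and without atchz1ab, which share no library, 13 members had opposite calls, 3 were higher in both and 1 was lower in both. Of all tested genes 1.2% had opposite calls, 1.54% were higher in both and 1.23% lower in both.

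Within the arp6 background, the lines with atchz1ab again had lower levels of the antenna genes. In atchz1ab arp6 against arp6, 3 members rose and 21 fell, beside 6.63% and 8.01% of all tested genes (14.6% in all), and 14 of the 18 antenna genes fell while 0 rose (0 by DESeq2 and 0 at an unadjusted p under 0.05). All 9 major antenna genes fell, with a median of -0.20 and a range of -0.38 to -0.06. LHCB2.2 fell furthest, to 573.1, 596.3 and 575.1 CPM, below all arp6 libraries and above all Col-0 libraries (log2 fold change -0.38, SE 0.024, edgeR adjusted p = 1.28e-28). The 3 that rose were PSBQ2, PSBR (0.04) and PSAD1 (0.06). PSBQ2 rose most, to 1198, 1219.8 and 1196 CPM (log2 fold change 0.07, SE 0.018, edgeR adjusted p = 0.00137). LHCB1.2, LHCB3 and PSBO1 were called lower although their libraries overlapped. Under library totals 9 members rose and 12 fell, with a median of -0.0022. The calls among all tested genes then moved from 1254 higher and 1514 lower to 1909 higher and 972 lower. Of the major antenna, LHCB1.2, LHCB1.3 and LHCB3 were not called under library totals and the other 6 fell.

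The interaction of atchz1ab with arp6 was called for 21 members, 8 positive and 13 negative, beside 13.7% of all tested genes (6.38% and 7.35%). Of the major antenna 6 were positive and 1 negative, with a median of 0.23, and of photosystem II 7 of 10 were negative, with a median of -0.13. Under library totals 14 members were positive and 8 negative. The split of calls among all tested genes moved as well, from 1207 positive and 1390 negative to 1624 positive and 956 negative. LHCB1.1 again had the largest value, 0.53 (SE 0.025, edgeR adjusted p = 5.24e-40). PSBS had the most negative value among called members, -0.38 (SE 0.024, edgeR adjusted p = 1.21e-29): it rose in atchz1ab in the Col-0 background, but in arp6 it fell from 1827, 1809 and 1831 CPM to 1555, 1574 and 1557 CPM when atchz1ab was added (log2 fold change -0.22). Over the 40 members, 14 fell and 2 rose with atchz1ab in both backgrounds, and 3 had opposite calls. Of all tested genes 1.01% fell in both, 1.09% rose in both and 2.34% had opposite calls.

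**Figure D4:**
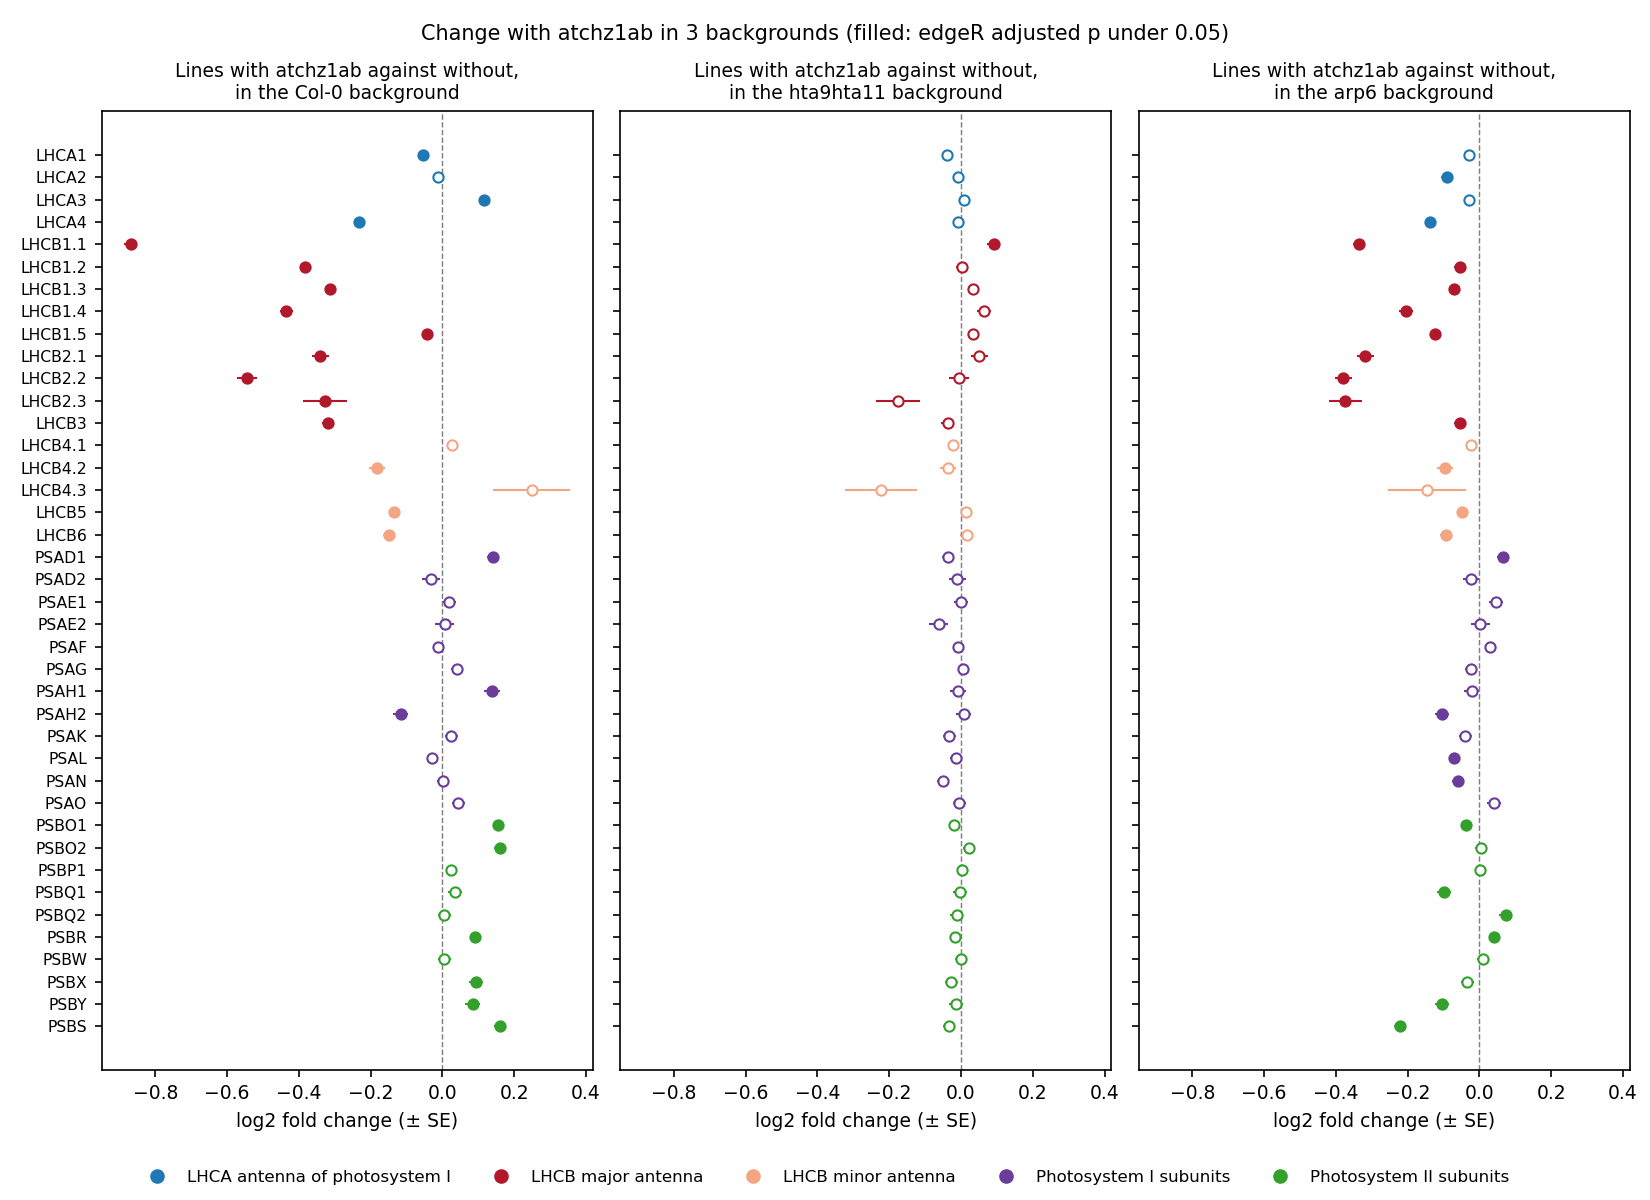
Log2 fold change of each member on adding atchz1ab, in the Col-0, hta9hta11 and arp6 backgrounds, with its SE, coloured by class and filled where called. The major antenna genes lie below 0 in Col-0 (median -0.34) and in arp6 (median -0.20), and in hta9hta11 only LHCB1.1 (0.09) is filled.

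The rise that went with the arp6 mutation was present with and without atchz1ab. In atchz1ab arp6 against atchz1ab, 36 members rose and 0 fell, with 44.8% of all tested genes called (22.2% higher and 22.6% lower) and a members' median of 0.35; 0 were lower by DESeq2 or at an unadjusted p under 0.05. The 36 were all among the 38 that rose in arp6 against Col-0, a comparison with no library in common. Of all tested genes 15.7% were higher in both and 16.1% lower in both. LHCB1.1 had the largest rise at 1.68 on the log2 scale, from 641.3, 636.4 and 627.7 CPM to 1997, 2094 and 2006 CPM. Against Col-0, atchz1ab arp6 had 34 members higher and 1 lower (45.9% of all genes called, 22.7% higher and 23.2% lower). LHCB2.3 rose most, to 138.5, 133.5 and 141.0 CPM (log2 fold change 1.15, edgeR adjusted p = 5.95e-42). LHCB1.4 alone was lower, at 1024, 1030.0 and 985.6 CPM (log2 fold change -0.10, SE 0.019, edgeR adjusted p = 4.87e-06), below every Col-0 library. Under library totals LHCB4.2, PSAE2 and PSAN were lower as well, where 3363 of all tested genes were higher and 5588 lower.

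Members called and changed by at least 1.5-fold came mainly from comparisons of lines with and without the arp6 mutation. In arp6 against Col-0 there were 11 of the 40, all higher, where 20.7% of all tested genes changed that much. In atchz1ab arp6 against Col-0 there were 9 of the 40, all higher (18% of genes). Against atchz1ab, atchz1ab arp6 had 11 of the 40, all higher (17.2% of genes). The share of members was only somewhat above that of all genes, and close to it in atchz1ab arp6 against Col-0. No test of these shares was made, and the comparisons partly share libraries. The percentages of all genes count both directions. In atchz1ab the only such member was LHCB1.1 (2.71% of genes), which was also the only one in the interaction with hta9hta11 (1.99%). There were 0 such members in hta9hta11 (2.78% of genes), in atchz1ab hta9hta11 against Col-0 (3.39%), against hta9hta11 (0.545%) or against atchz1ab (2.58%), in atchz1ab arp6 against arp6 (3.6%) and in the interaction with arp6 (4.47%).

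The balance between antenna and photosystem II genes shifted in each line. The summed CPM of the major antenna genes over that of photosystem II genes was 1.05 ± 0.00176 in Col-0 (SD, n = 3). It was lower in atchz1ab (0.808 ± 0.00495), hta9hta11 (0.895 ± 0.00402) and their combination (0.921 ± 0.00547), and higher in arp6 (1.23 ± 0.00623) and atchz1ab arp6 (1.15 ± 0.0158). The values of no line overlapped with those of Col-0. A ratio within a library does not depend on its scaling, but its sums weigh the genes with the highest levels most. For the photosystem I antenna over photosystem I, the wild-type ratio was 0.807; it was 0.772 in atchz1ab, 0.960 in atchz1ab arp6 and 1.00 in arp6. In hta9hta11 (0.801) and atchz1ab hta9hta11 (0.803) it overlapped with Col-0. The ratio of photosystem I to photosystem II genes was 0.769 in Col-0, 0.733 in atchz1ab, 0.746 in hta9hta11, 0.744 in atchz1ab hta9hta11, 0.726 in arp6 and 0.731 in atchz1ab arp6, below every Col-0 library in all 5 lines.

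The balance between gene copies that encode the same subunit is given as a description. For 7 pairs, the log2 ratio of the copies within each library was compared between each of atchz1ab, hta9hta11 and arp6 and Col-0, with an exact 2-sided permutation test. With 3 against 3 libraries that test cannot give a p below 0.1, so none of the 21 tests could pass 0.05, and the adjusted values ran from 0.15 to 0.9. The largest shift was in PSBQ1 over PSBQ2, whose log2 ratio was -0.47, -0.49 and -0.48 in Col-0 and 0.05, 0.05 and 0.04 in arp6, a difference of 0.53 (exact permutation p = 0.1). PSAD1 over PSAD2 shifted by -0.46 in arp6 and LHCB2.1 over LHCB2.2 by -0.42. LHCB4.1 over LHCB4.2 shifted the same way in all 3 lines, by 0.21 in atchz1ab, 0.25 in hta9hta11 and 0.21 in arp6. By contrast, PSBO1 over PSBO2 shifted by -0.01 in atchz1ab, 0.01 in hta9hta11 and -0.03 in arp6.

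**Figure D5:**
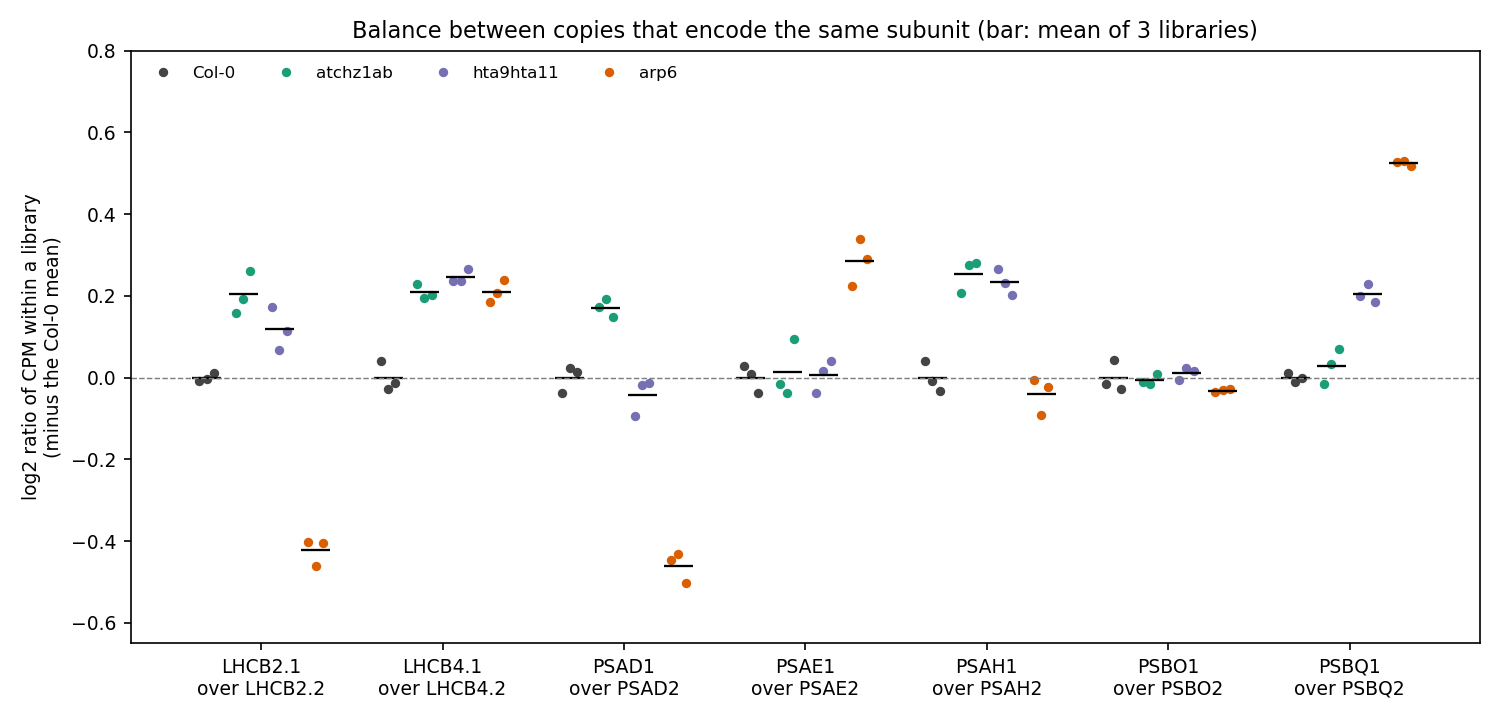
Log2 ratio of 7 pairs of gene copies in each library, minus the Col-0 mean of the pair, for Col-0, atchz1ab, hta9hta11 and arp6, with bars at the mean of 3 libraries. The arp6 points lie highest for PSBQ1 over PSBQ2 (0.53 on average) and lowest for PSAD1 over PSAD2 (-0.46).

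Some of these genes share sequence with a near copy, so reads could be split or lost between them in the authors' counting. LHCB1.1, LHCB1.2 and LHCB1.3 lie side by side on chromosome 1 (TAIR10.1, chr1:10474656-10475969, chr1:10472280-10473502 and chr1:10477885-10479114) with 95.7% to 96.4% coding identity. LHCB2.1 and LHCB2.2 on chromosome 2 (chr2:1822990-1824480 and chr2:1799234-1800472) have 96.6%. Of their 50-base windows, 20.5% of LHCB1.1, 17.0% of LHCB1.3 and 29.5% of LHCB2.2 occur in another member. LHCB1.2, LHCB1.4, LHCB1.5 and LHCB2.1 also share windows, and the other 33 members share none. Counts summed over the family are free of such splitting within it, but any reads lost in the counting stay missing from the sum. LHCB1 as a whole changed by -0.28 in atchz1ab, -0.18 in hta9hta11 and 0.58 in arp6 on the log2 scale, and LHCB2 by -0.41, -0.23 and 0.97. The interactions of the summed LHCB1 were 0.32 with hta9hta11 and 0.17 with arp6, while that of the summed LHCB2 was 0.43 with hta9hta11 and, at 0.06, not called with arp6. The strand setting of the counting was not given in the sources used here. Opposite-strand genes overlap all 1045 bases of LHCB1.5, 788 bases of PSAH1 and 595 bases of LHCB2.3, measured over whole genes, introns included. PSAG (479 bases), LHCB6 (461) and PSAE1 (445) are overlapped as well, and some other members by fewer bases. Reads of those partners may be included in the values of these members if strand was not used. PSAD2 and PSBP1 also overlap a gene on their own strand.

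Other genes of photosynthesis moved in arp6 as well, in a comparison with 24.2% of all tested genes called higher and 25.5% lower. Of 18 Calvin cycle genes 16 rose and 1 fell, with a median of 0.35, led by FBA1, a plastid aldolase, from 530.4 to 985.6 CPM (log2 fold change 0.89). Of 18 chlorophyll synthesis genes 16 rose and 1 fell, with a median of 0.49; PORA, a protochlorophyllide reductase, went from 1.14 to 4.61 CPM (2.01 on the log2 scale), and CAO, which makes chlorophyll b for the antenna, from 60.1 to 128 CPM (1.08). Of 13 genes of electron transport and ATP synthase 10 rose and 1 fell, led by PGRL1A (0.82), and 7 of 8 genes of antenna import, state transitions and quenching rose, led by ZEP of the xanthophyll cycle (0.90). Of 21 regulators 12 rose and 4 fell, with PIF1 at 1.18 and PIF5 at 0.96, both factors that act against light responses. GLK1 and GLK2, activators of antenna genes that were singled out after their values were seen, had log2 fold changes of -0.64 and 0.62.

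In atchz1ab, the fall of the antenna genes was not shared by the carbon-fixing genes. Of all tested genes 6.15% were called higher and 5.55% lower in atchz1ab against Col-0. Of 18 Calvin cycle genes 14 rose and 0 fell, led by RBCS2B, a small subunit of Rubisco (0.41), and of 13 electron transport genes 11 rose and 0 fell (0 in both lists by DESeq2 and at an unadjusted p under 0.05). Of 18 chlorophyll synthesis genes 8 fell and 2 rose, with HEMA1, the first committed step, at -0.32 and PORC at 0.38. Of 9 photosystem and Rubisco genes of the chloroplast genome 8 fell and 0 rose (also 0 by DESeq2 and at an unadjusted p under 0.05), with a median of -0.65: psbE was at -0.86 and rbcL at -0.69. Their summed level was 5797 to 5854 CPM against 9160 to 9227 CPM in Col-0. Lines with atchz1ab had 1.32% to 1.43% of their counts from the chloroplast genome and the others 1.72% to 1.81%, in libraries made from polyadenylated RNA, where few chloroplast transcripts are captured. Its part in the results on nuclear genes was not tested.

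Some markers of other organs and states differed between arp6 and Col-0 too, where 24.2% of all tested genes were called higher and 25.5% lower. All 4 vascular markers rose, with a summed level of 269 to 281 CPM against 198 to 203 CPM. SUC2 made most of that sum (219.9 against 162.1 CPM), and the XCP1 libraries overlapped with those of Col-0. All 6 tested senescence markers of 8 fell, and the sum of the list went from 672 to 673 CPM down to 409 to 414 CPM. NYC1 made most of that sum (440.7 CPM in Col-0 and 243.8 CPM in arp6). Root markers summed to 305 to 321 CPM against 408 to 423 CPM, where 4 of 14 were tested, 1 rising and 1 falling, and PYK10 made most of the sum. Epidermis markers summed to 1211 to 1225 CPM against 1309 to 1349 CPM, with 1 of 5 rising and 2 falling, and floral markers to 30.3 to 33.1 CPM against 3.12 to 5.35 CPM, with SEP3 and AP1 rising. Guard cell markers, at 76.2 to 84.9 CPM against 74.7 to 85.8 CPM, overlapped, with 1 of 4 rising and 1 falling. Their part in the rise of the 40 members was not tested.

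Some markers also differed from Col-0 in atchz1ab and hta9hta11, where 11.7% and 11.2% of all tested genes were called. Of the 6 tested senescence markers 2 rose and 1 fell in each line: SAG13 fell by 2.24 and 1.52 on the log2 scale and SEN1 rose by 0.78 and 0.95, while NYC1, a chlorophyll b reductase named after its values were seen, rose by 0.22 and 0.31. The summed level of the senescence markers was 750 to 774 CPM in atchz1ab and 797 to 826 CPM in hta9hta11. NYC1 made most of it (511.8 and 546.5 CPM). Of 5 epidermis markers 2 fell in atchz1ab, LTP1 and CER6, and 1 rose and 1 fell in hta9hta11. Of the floral markers AP1 rose in both lines and SEP3 in hta9hta11. By edgeR and by DESeq2 0 root, guard cell or vascular markers were called in either line. At an unadjusted p under 0.05, 1 vascular marker was higher in each line and 1 guard cell marker lower in atchz1ab. The share of all genes at that threshold is not given. The part of these markers in the fall of the antenna genes was not tested.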

How the data were processed

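RNA was taken from whole seedlings with the RNAprep pure Plant Kit and libraries were made with the KAPA stranded mRNA-seq kit, per the labels' protocols. The authors deposited raw counts per gene; the submitters' processing notes name cutadapt, HISAT2, SAMtools, featureCounts and the TAIR10 build, while versions and the strand setting were not given in the sources used here. No reads were normalized before deposit, as the counts are whole numbers with unequal totals of 7163359 to 10744318.

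Counts were scaled by TMM and filtered with filterByExpr (18906 of 33602 genes, 99.9% of counts). edgeR 4.0.16 in R 4.3.3 fitted 1 quasi-likelihood model to all 18 libraries, with 12 residual degrees of freedom, and p-values were adjusted by Benjamini-Hochberg over all tested genes; a gene was called at an adjusted p under 0.05. The common biological coefficient of variation was 3.08%. Alternatives were other scalings, no filter, DESeq2 1.42.0, a replicate block, smaller sets of groups and leaving out each library. Levels per length used exon lengths of the RefSeq TAIR10.1 annotation, whose nuclear chromosomes have the lengths of TAIR10.

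The members and lists were chosen with earlier results of these data known. Values in every library are given, per class, for the member with the highest Col-0 level per length and those with the largest and smallest change in arp6, and otherwise for the largest rise and fall of a comparison; of other lists at most the 2 called genes with the largest change are named. Further members were named after their values were seen. Replicate pairs differed by more than sampling noise (chi-square per degree of freedom 1.43 to 1.66), so none was counted as a duplicate.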

Additional observations from a re-analysis of the deposited data

Results flagged for a closer look

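Both interactions marked members whose response to atchz1ab differed between backgrounds by a test of that difference (edgeR's quasi-likelihood test of the interaction term, adjusted over all tested genes). For hta9hta11 against Col-0 as the background, 13 members were called higher and 10 lower, beside 3.41% and 3.74% of all tested genes. LHCB1.1 was at 0.96 and LHCB4.3 at -0.47 on the log2 scale, and the LHCB4.3 call was lost with DESeq2. For arp6 against Col-0 as the background, 8 members were called higher and 13 lower, beside 6.38% and 7.35% of all tested genes. Library totals instead of TMM gave 14 higher and 8 lower, with 1624 of all tested genes higher and 956 lower. With TMM, LHCB1.1 was at 0.53 and PSBS at -0.38.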

How the results depend on the processing

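The replicate block, no filter, scaling without photosynthesis genes and DESeq2 kept the members' counts within 1.5 times, and the counts with a replicate block were the same as without it (38 higher in arp6, 9 higher and 15 lower in atchz1ab); same-numbered libraries did not deviate together (45 correlations of -0.023 to 0.029). Library totals without TMM moved the medians to 0.28 in arp6 against Col-0, 0.31 in atchz1ab arp6 against Col-0, 0.28 in atchz1ab arp6 against atchz1ab, -0.0022 in atchz1ab arp6 against arp6, 0.0088 in atchz1ab hta9hta11 against hta9hta11, and 0.0063 and 0.038 in the interactions with hta9hta11 and arp6. Counts then were 3 lower in arp6, 4 lower in atchz1ab arp6 against Col-0, 2 lower against atchz1ab, 9 higher and 12 lower against arp6, 4 higher in atchz1ab hta9hta11 against hta9hta11, and 14 higher and 8 lower in the arp6 interaction; LHCB1.4 turned to -0.014 and LHCB4.2 to -0.0063 in arp6. A 1.5-fold minimum left 11 higher in arp6, 11 higher in atchz1ab arp6 against atchz1ab, 9 higher and 0 lower against Col-0, 1 lower and 0 higher in atchz1ab, 1 higher and 0 lower in the hta9hta11 interaction, and 0 in either direction in the other comparisons. In atchz1ab hta9hta11 against hta9hta11, RLE scaling or fitting only those groups gave 2 higher. Under library totals the calls among all tested genes shifted too, for example to 1909 higher and 972 lower in atchz1ab arp6 against arp6. The causes were not tested.

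Leaving out 1 library at a time gave medians of -0.071 to -0.037 (atchz1ab arp6 against arp6), 0.33 to 0.35 (against atchz1ab), -0.029 to -0.0034 (atchz1ab hta9hta11 against Col-0), -0.021 to 0.012 (hta9hta11 against Col-0; 0.012 without Col-0 replicate 1) and -0.029 to -0.0020 (arp6 interaction). Against atchz1ab, atchz1ab hta9hta11 had 8 to 12 lower members (8 without its replicate 3), and against hta9hta11 0 to 1 (1 without its replicate 2). The PSAE1 over PSAE2 shift ran from -0.027 to 0.039 in atchz1ab and -0.012 to 0.03 in hta9hta11, and the PSBO1 over PSBO2 shift from -0.020 to 0.015 and from -0.0029 to 0.032. The LHCB4.3 interaction was lost without any of 8 libraries (adjusted p 0.0553 to 0.1). Depth limits LHCB4.3 and LHCB2.3 most, the members with the fewest counts.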
